A study of Mus musculus with 8 samples.

Results

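The genes described here build the extracellular matrix or are secreted into it. They are the collagens Col3a1, Col5a2 and Col6a3, fibronectin (Fn1), the proteoglycans Bgn, Vcan and Fmod, and the matricellular and related secreted genes Islr, Fstl1 and Smoc2. These 10 genes, of 5822 named on the array, were picked by symbol. They were selected on the ratios of these same arrays, since earlier results had shown how they varied between arrays and between genotypes. Their levels and genotype differences are therefore given as a description. Counts from the fit across all genes are shown for them, but are no test of them. Cortical astrocytes from newborn C57BL/6j mice were cultured, and wild-type (WT) cells were compared with cells lacking connexin43 (Cx43 KO), a gap junction protein of astrocytes. There were 8 2-colour arrays, 4 per genotype, each comparing astrocytes with a pool of adult C57BL/6j RNA. The pool came from liver, kidney, lung, heart, aorta, brain, stomach, spleen and gonads (ovary and testicles). The title of Cx43 KO 3 names Cx43 without the word KO, and Gja1, the connexin43 gene, is not named among the features, so the genotype was not checked here. Arrays are numbered 1 to 4 in each genotype, and arrays of the same number came from the same lot batch. Nothing in the labels says how the connexin43 gene was deleted, or whether the samples were separate cultures or animals, so any error here may be technical.

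Fibrillar collagens assemble into banded fibres, while collagen VI, to which Col6a3 contributes a chain, forms beaded microfilaments near cell surfaces. Fibronectin is laid down early and guides collagen deposition. Biglycan (Bgn) and fibromodulin (Fmod) are small leucine-rich proteoglycans that bind collagen, and versican (Vcan) is a large chondroitin sulphate proteoglycan that binds hyaluronan. Matricellular proteins are secreted proteins that tune cell behaviour in the matrix without being part of its scaffold. In the brain, fibrillar collagen comes mainly from meningeal and perivascular fibroblasts and mural cells, whereas glial cells make proteoglycans such as versican.

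Each value is a log ratio centred on the median of its array, read as log2, so that 1 unit is a 2-fold change; the base is not given in the sources used here. The labels name the RNA in each channel but not which channel is the numerator. The ratio is read as astrocytes over pool, a likely direction, because Fabp7, a gene of radial glia and astrocytes, lay between 3.06 and 4.61 on all 8 arrays, while Mbp, a myelin gene of adult brain, lay between -5.88 and -4.53 on the 6 arrays that gave it a ratio. Between 3506 and 5514 of the 9568 features carried a ratio on an array. Exact 0 was read as no ratio. Ratios of different genes are not levels that can be ranked, since each is relative to that gene's own abundance in the pool. The number of arrays limits the precision. Of 9 astrocyte markers on the array, Slc1a2 had no ratio on any array and Aldoc lay between -1.07 and 0.88, close to the pool.

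Of the 15 features that name these genes, 13 carried a ratio on at least 1 array. All 10 genes entered the fit across genes, 9 of them with a value on all 8 arrays and Fmod with 7. Col5a2, Fn1, Fmod, Islr and Fstl1 were above the pool on every array that measured them. In Cx43 KO, 5 genes had a lower mean than in WT and 5 a higher one. The differences ran from -1.64 for Col3a1 to 0.59 for Fmod. Each SE and interval of a difference is that of the limma fit, which draws a gene's variance towards that of all genes. The SDs are those of the arrays and are not drawn in this way. For the most variable genes, such as Col3a1 and Smoc2, the SE is therefore smaller than their SDs alone would give, and may understate the error. With limma, 0 of the 10 genes were called at an adjusted p of 0.05, where 0 of all 3505 genes and unnamed features (0%) were called. Before adjustment, 1 of the 10 (Vcan) lay below a p of 0.05, against 263 of 3505 (7.5%). That count changed without Cx43 KO 4: it was then 5 of 10 (Col3a1, Col6a3, Vcan, Fmod and Smoc2), against 384 of 3143 (12.2%). The choice of the genes used this contrast, so their shares cannot be compared with those over all genes.

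**Figure D1:**
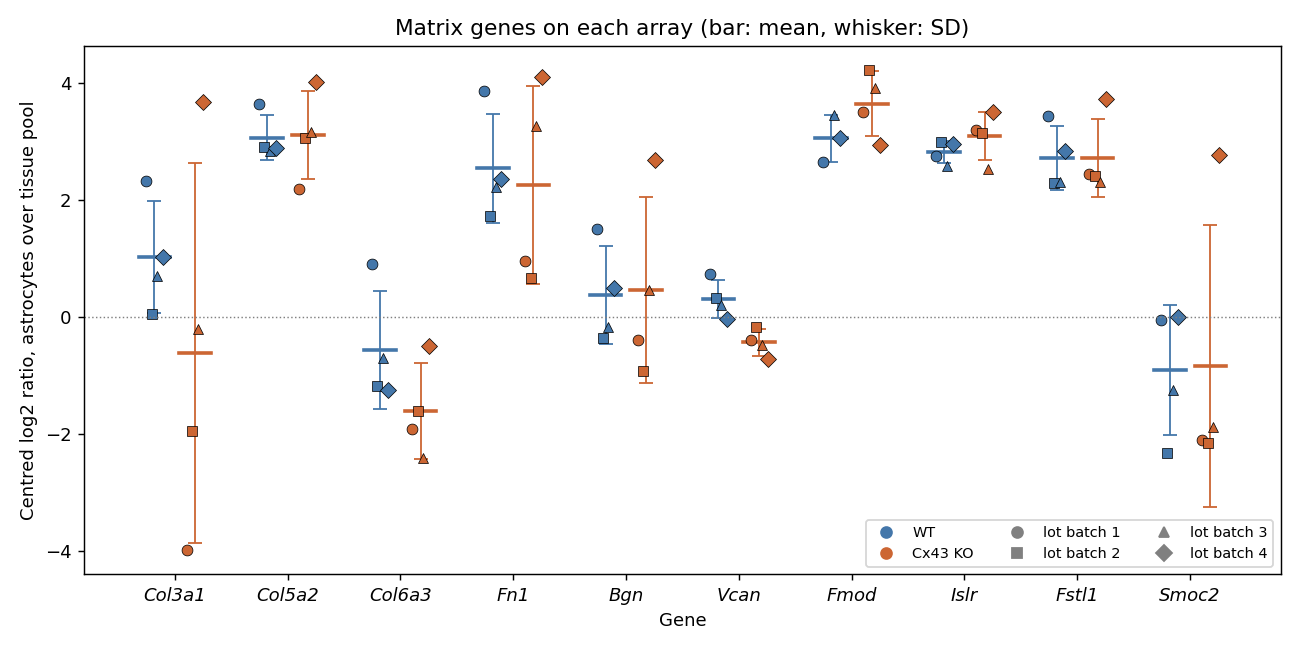
Centred log2 ratio of astrocytes over tissue pool for the 10 matrix genes, with 1 point per array, the colour giving the genotype, the symbol the lot batch, the bar the mean and the whisker the SD (n = 4 per genotype, 3 for Fmod in WT). Vcan is the gene whose WT and Cx43 KO points do not overlap, and Col3a1 spans -3.98 to 3.67 within Cx43 KO.

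Col3a1, the chain of collagen III, varied more than any other of these genes, and only 1 of its 2 features gave a ratio. Its log2 ratio was 2.33, 0.048, 0.70 and 1.03 in WT samples 1 to 4, and -3.98, -1.94, -0.21 and 3.67 on Cx43 KO 1 to 4. Samples 1, 2 and 3 of Cx43 KO were under all WT arrays, while Cx43 KO 4 lay above every WT array, so the genotypes overlapped. The mean was 1.03 ± 0.96 (SD, n = 4) over the WT arrays and -0.61 ± 3.24 (SD, n = 4) over the Cx43 KO arrays, and Cx43 KO minus WT was -1.64 (SE 1.30). Its SD over the 8 arrays exceeded that of 99.96% of the 2596 genes and features with 8 values. The gene was picked with its variation between arrays known, so this rank is no test.

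Col5a2, a collagen V chain that joins collagen fibrils and limits their width, was high against the pool throughout. It lay at 3.64, 2.90, 2.83 and 2.89 in WT samples 1 to 4 and at 2.19, 3.06, 3.15 and 4.02 on Cx43 KO 1 to 4. WT 1 stood above the other WT arrays, and in Cx43 KO array 1 was the lowest and array 4 the highest of all 8. The means of 3.06 ± 0.38 (SD, n = 4) and 3.11 ± 0.75 (SD, n = 4) differed by 0.041 (SE 0.35). Of its 3 features, 1 gave a ratio on all 8 arrays, 1 on 7 and 1 on 2, and the difference was -0.0049 and -0.14 for the features with 8 and 7 values. Col3a1 and Col5a2 are neighbouring protein-coding genes on chromosome 1 in the RefSeq table of GRCm38.p6.

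Col6a3 lay below the pool on 7 of 8 arrays. Its values were 0.91, -1.18, -0.70 and -1.25 in WT samples 1 to 4, and -1.91, -1.61, -2.40 and -0.49 on Cx43 KO 1 to 4. Here WT 1, not Cx43 KO 4, was the highest array, and samples 1, 2 and 3 of Cx43 KO were again under all WT arrays. The mean was -0.56 ± 1.00 (SD, n = 4) over the WT arrays and -1.60 ± 0.81 (SD, n = 4) over the Cx43 KO arrays, and Cx43 KO minus WT was -1.05 (SE 0.51). Over the 3 collagens together, the mean log2 ratio per array was 0.59 to 2.29 in WT and -1.23 to 2.40 in Cx43 KO, where it was -1.23, -0.16, 0.18 and 2.40 on arrays 1 to 4.

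Fibronectin followed the same order of arrays in part. Fn1 lay at 3.86, 1.72, 2.22 and 2.35 in WT samples 1 to 4 and at 0.96, 0.67, 3.27 and 4.10 on Cx43 KO 1 to 4. The first 2 Cx43 KO arrays were below all WT arrays, and the last 2 were above all WT arrays except WT 1, with Cx43 KO 4 above that one as well. The genotype means of 2.54 ± 0.92 (SD, n = 4) and 2.25 ± 1.69 (SD, n = 4) differed by -0.29 (SE 0.75).

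Among the proteoglycans, Vcan differed from the collagens in pattern. It lay at 0.74, 0.32, 0.21 and -0.040 in WT samples 1 to 4 and at -0.38, -0.16, -0.47 and -0.71 on Cx43 KO 1 to 4. Every Cx43 KO array was below every WT array, and the lowest was Cx43 KO 4, the array on which 7 of the other genes were highest. The mean was 0.31 ± 0.33 (SD, n = 4) over the WT arrays and -0.43 ± 0.23 (SD, n = 4) over the Cx43 KO arrays, and Cx43 KO minus WT was -0.74 (SE 0.21). Vcan was the 1 gene of 10 with groups that did not overlap in the lower direction, against 98 of 3505 (2.8%) over all genes. In the higher direction there were 0 of 10, against 85 of 3505 (2.43%).

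Biglycan showed the array pattern of fibronectin. Bgn lay at 1.50, -0.35, -0.16 and 0.51 in WT samples 1 to 4 and at -0.38, -0.93, 0.45 and 2.68 on Cx43 KO 1 to 4. Cx43 KO 4 was the highest array and Cx43 KO 2 the lowest, with WT inside that span. The means of 0.37 ± 0.83 (SD, n = 4) and 0.46 ± 1.59 (SD, n = 4) differed by 0.083 (SE 0.70). Both of its features gave 8 values, with genotype differences of 0.049 and 0.12.

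Fibromodulin ran the other way. Fmod lay at 2.64, 3.45 and 3.06 on WT 1, 3 and 4, had no ratio on WT 2, and lay at 3.50, 4.22, 3.91 and 2.95 on Cx43 KO 1 to 4. Its lowest Cx43 KO value was on array 4, inside the WT range, and the other 3 were above every WT value. The mean was 3.05 ± 0.40 (SD, n = 3) over the WT arrays and 3.64 ± 0.55 (SD, n = 4) over the Cx43 KO arrays, and Cx43 KO minus WT was 0.59 (SE 0.32). This difference was 0.10 with scale normalization and 1.44 when exact 0 was kept as a ratio. Thus the 2 small leucine-rich proteoglycans were opposite in their extremes, Bgn being highest and Fmod lowest on Cx43 KO 4 among the Cx43 KO arrays.

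Islr, which encodes a leucine-rich repeat protein of the immunoglobulin superfamily made by mesenchymal cells, was the steadiest of the 9 genes with 8 values. It lay at 2.76, 2.99, 2.59 and 2.95 in WT samples 1 to 4 and at 3.20, 3.14, 2.53 and 3.50 on Cx43 KO 1 to 4. Cx43 KO 1, 2 and 4 were above every WT array, and Cx43 KO 3 was below them. The means of 2.82 ± 0.19 (SD, n = 4) and 3.09 ± 0.41 (SD, n = 4) differed by 0.27 (SE 0.22), a sign that turned with quantile (-0.095) and scale (-0.20) normalization.

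Fstl1, a secreted glycoprotein related to SPARC, lay at 3.44, 2.30, 2.31 and 2.83 in WT samples 1 to 4. On Cx43 KO 1 to 4 it lay at 2.44, 2.40, 2.31 and 3.71. Cx43 KO 1, 2 and 3 were close together inside the WT range, and Cx43 KO 4 was above all. The means, 2.72 ± 0.54 (SD, n = 4) and 2.71 ± 0.67 (SD, n = 4), differed by -0.0030 (SE 0.36, 95% interval -0.79 to 0.79).

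Smoc2, a calcium-binding modular protein of the same SPARC family, spread far more, and only 1 of its 2 features gave a ratio. Its ratios were -0.043, -2.32, -1.24 and -0.0047 in WT samples 1 to 4 and -2.11, -2.14, -1.87 and 2.77 on Cx43 KO 1 to 4. Cx43 KO 4 stood far above the others. Before centring, Smoc2 was also just above 0 on WT 1 (0.042) and WT 4 (0.19). The means of -0.90 ± 1.11 (SD, n = 4) and -0.84 ± 2.41 (SD, n = 4) differed by 0.067 (SE 1.02, 95% interval -2.19 to 2.33). Both the SE and the interval come from the limma fit and are narrower than these SDs alone would give. Without Cx43 KO 4 the Cx43 KO mean was -2.04 ± 0.15 (SD, n = 3) and the difference -1.14. The 3 matricellular genes had a mean per array of 0.99 to 2.05 in WT, and of 1.18, 1.13, 0.99 and 3.33 on Cx43 KO 1 to 4.

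Cx43 KO 4 was the highest array for 7 of the 9 genes with 8 values, namely Col3a1, Col5a2, Fn1, Bgn, Islr, Fstl1 and Smoc2. Over all 2596 genes and features with 8 values, the same array was the highest for 20.2% and the lowest for 22.8%. Vcan and Col6a3 were highest on WT 1. The SD within Cx43 KO was larger than within WT for 8 of the 10 genes, the exceptions being Col6a3 and Vcan, and over all tested genes it was larger in 57.7%. For Col3a1 the ratio of the 2 SDs was 3.38. Over the 8 arrays, the SDs of Col3a1, Col6a3, Fn1, Bgn and Smoc2 lay above those of 98.3% or more of genes and features, while that of Islr lay above 54.8%. The genes were picked with their variation between these arrays known, and several moved together. These counts and ranks therefore describe the genes, and cannot be compared with the shares over all genes.

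Within lot batches the genotype difference changed sign for all these genes except Vcan. In lot batch 1, 8 of 10 genes were lower in Cx43 KO, by -6.31 for Col3a1, -2.90 for Fn1, -2.82 for Col6a3, -2.06 for Smoc2 and -1.88 for Bgn, with Fmod at 0.86 and Islr at 0.44 on the other side. In lot batch 4, 8 of 10 were higher, by 2.78 for Smoc2, 2.64 for Col3a1, 2.18 for Bgn and 1.75 for Fn1, with Vcan at -0.67 and Fmod at -0.12. Lot batch 2 gave -1.98 for Col3a1 and -1.04 for Fn1, and lot batch 3 gave -0.91 and 1.05. Vcan differed by -1.12, -0.48, -0.68 and -0.67 in lot batches 1 to 4.

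**Figure D2:**
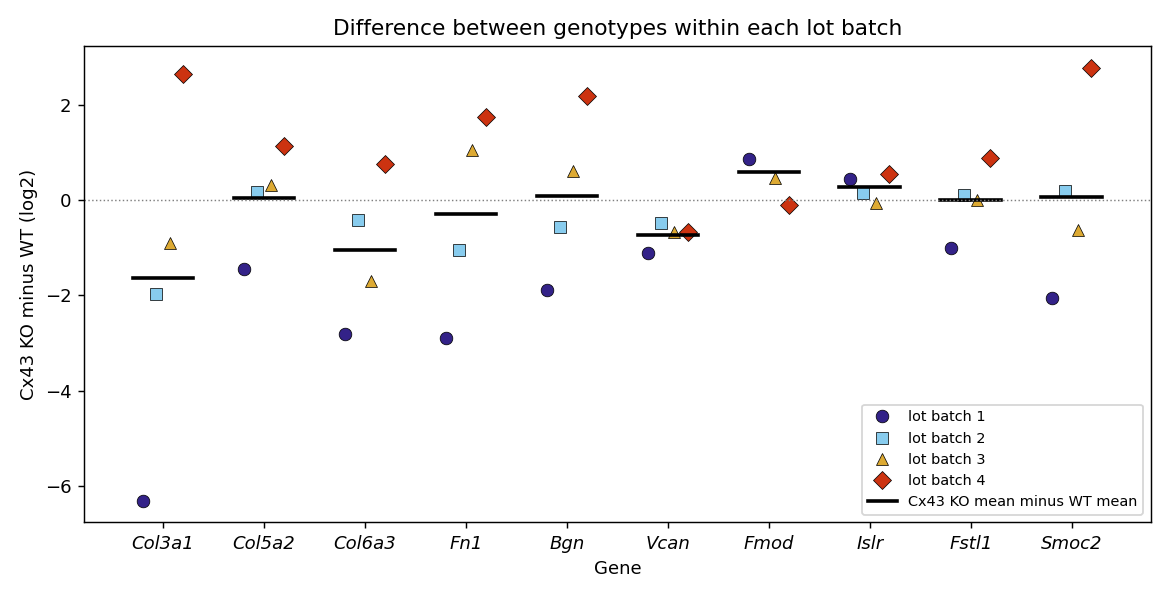
Cx43 KO minus WT (log2) of the 2 arrays of each lot batch, for the 10 genes, with the black bar at the difference of the genotype means; Fmod has no value in lot batch 2. Lot batch 1 (circles) is lowest for 8 genes and lot batch 4 (diamonds) highest for 8, while the 4 Vcan points lie between -1.12 and -0.48.

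Leaving out Cx43 KO 4, the array that stood highest, moved most of the differences downward. The SEs given here are again those of the limma fit, and for Col3a1 the SE is smaller than its SDs alone would give. Col3a1 then differed by -3.07 (SE 0.75), Col6a3 by -1.42 (SE 0.45), Smoc2 by -1.14 (SE 0.48), Fn1 by -0.90 (SE 0.62), Bgn by -0.66 (SE 0.44), Vcan by -0.65 (SE 0.21) and Fmod by 0.83 (SE 0.26). In these 7 arrays the groups did not overlap for Col3a1, Col6a3 and Vcan, which were lower, 3 of 10 genes against 166 of 3143 tested (5.28%), and for Fmod, which was higher, 1 of 10 against 213 of 3143 (6.78%). In limma 0 of the 10 genes were called there, against 4 of 3143 (0.127%). Leaving out lot batch 1 instead, Col3a1 differed by -0.085 and Fn1 by 0.58. Over the 22 alternatives tried, Col3a1 ran from -3.07 to -0.085, Col6a3 from -1.65 to -0.45 and Vcan from -0.86 to -0.59. Col5a2 (-0.49 to 0.54), Fn1 (-0.97 to 0.58), Bgn (-0.66 to 0.74), Fstl1 (-0.45 to 0.33) and Smoc2 (-1.14 to 0.78) had both signs.

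**Figure D3:**
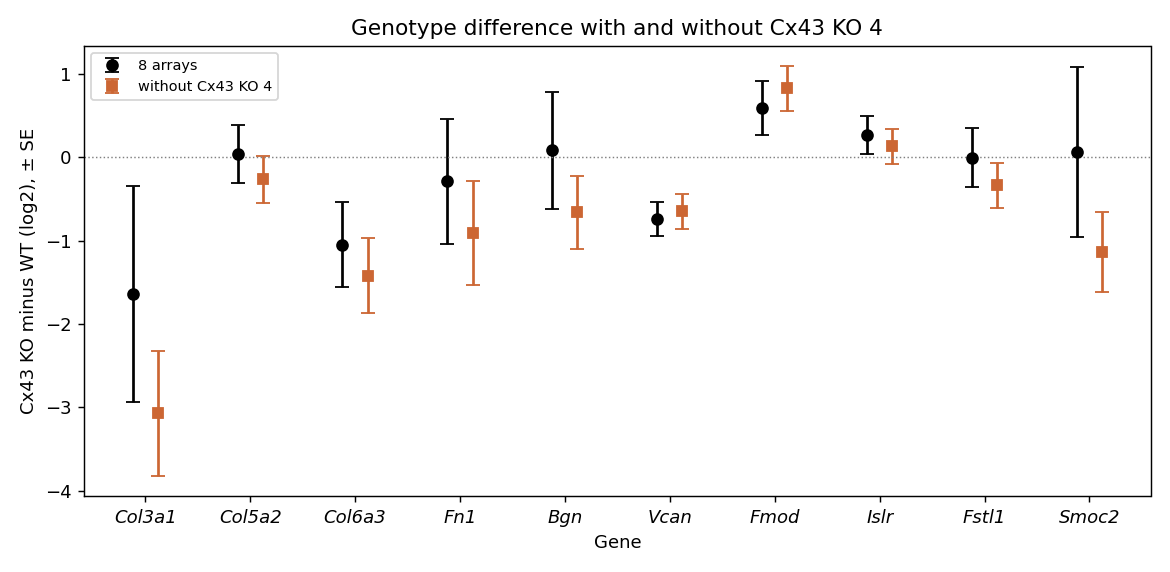
Cx43 KO minus WT (log2) with its SE from the limma fit, for the 10 genes, with all 8 arrays (circles) and without Cx43 KO 4 (squares). Col3a1 moves from -1.64 to -3.07 and Smoc2 from 0.067 to -1.14, while Vcan stays near -0.74 and -0.65.

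Pairs of these genes were compared over the 8 arrays by Pearson's r, as a description, since all points share the same arrays and reference. Bgn went with Smoc2 (r = 0.92), Fn1 (r = 0.91) and Fstl1 (r = 0.91), and Col3a1 with Col5a2 and Fn1 (both r = 0.86). Without Cx43 KO 4 the last 2 were 0.78 and 0.80, and Bgn with Fn1 was 0.93. Fmod ran against Col6a3 and Fstl1 (both r = -0.80) over its 7 arrays. Vcan and Col6a3 had r = 0.63 over 8 arrays and 0.95 without Cx43 KO 4, and Islr with Fn1 went from -0.12 to -0.78.

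The mean of the 9 genes with 8 values was 2.13, 0.71, 0.97 and 1.25 in WT samples 1 to 4 and 0.0025, 0.28, 0.75 and 2.58 on Cx43 KO 1 to 4. Of 2154 other named genes with 8 values, the 8 most like this mean were Mad2l1bp (Pearson r = 0.99), Col6a1 (r = 0.98), Ppard (r = 0.96), Parp1 (r = 0.95), Tfpi (r = 0.95), Uhrf2 (r = 0.95), Dnajc13 (r = 0.95) and Ap3s1 (r = 0.95). Spearman's rho was 0.98 for Mad2l1bp, Col6a1 and Ppard. Of the 2154 genes, 30 had a Pearson r above 0.9. Without Cx43 KO 4 and WT 1, the 2 arrays farthest from the median, r was 0.96 for Mad2l1bp, 0.91 for Col6a1 and 0.74 for Tfpi. Col6a1, which encodes another chain of collagen VI, lay at 0.86, -1.27, -0.17 and -0.030 in WT samples 1 to 4 and at -1.52, -1.63, -0.74 and 1.43 on Cx43 KO 1 to 4. Mad2l1bp, whose product binds a spindle checkpoint protein, moved over a much smaller span, from -0.97 to -0.098.

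The promoters of 4 of these genes are shown because their expression patterns contrast: Col3a1, Bgn and Fstl1 were highest on Cx43 KO 4, and Fmod was lowest there among the Cx43 KO arrays. Each run is the 250 bases before the RefSeq start in GRCm38.p6, 5′ to 3′ on the strand of the gene. Capitals mark matches, on either strand, to 5 motifs searched. These were TATAAA, the core promoter element bound by the basal machinery, the CCAAT box spelled by its name, the GC box GGGCGG bound by Sp family factors, the Smad core CAGAC, and the element of AP-1 factors, TGANTCA. Matches may overlap.
Col3a1 promoter: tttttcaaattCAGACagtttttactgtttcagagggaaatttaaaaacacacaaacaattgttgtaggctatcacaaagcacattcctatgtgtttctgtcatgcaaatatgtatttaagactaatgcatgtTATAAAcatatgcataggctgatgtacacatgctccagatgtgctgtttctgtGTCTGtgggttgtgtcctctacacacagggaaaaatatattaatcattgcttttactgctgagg
Bgn promoter: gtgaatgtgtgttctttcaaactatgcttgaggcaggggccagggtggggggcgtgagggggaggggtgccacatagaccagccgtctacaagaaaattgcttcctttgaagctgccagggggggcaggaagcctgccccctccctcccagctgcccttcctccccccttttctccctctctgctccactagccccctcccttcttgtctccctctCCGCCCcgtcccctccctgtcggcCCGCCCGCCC
Fstl1 promoter: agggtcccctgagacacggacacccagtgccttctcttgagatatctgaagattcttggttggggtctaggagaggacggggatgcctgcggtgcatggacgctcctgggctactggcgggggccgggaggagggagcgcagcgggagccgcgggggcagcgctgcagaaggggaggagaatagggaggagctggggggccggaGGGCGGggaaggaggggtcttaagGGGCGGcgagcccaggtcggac
Fmod promoter: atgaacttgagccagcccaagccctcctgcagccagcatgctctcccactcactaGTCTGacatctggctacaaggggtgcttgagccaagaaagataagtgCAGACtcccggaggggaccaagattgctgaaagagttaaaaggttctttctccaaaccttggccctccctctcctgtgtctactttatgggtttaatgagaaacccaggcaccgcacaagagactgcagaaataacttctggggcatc
These lie at chr1:45311288-45311537 (plus strand, Col3a1), chrX:73483351-73483600 (plus strand, Bgn), chr16:37776805-37777054 (plus strand, Fstl1) and chr1:134037004-134037253 (plus strand, Fmod). The RefSeq promoter table held 7 of the 10 genes, with no entry for Col5a2, Fn1 and Smoc2. Col3a1 had a GC content of 35.2%, 1 TATAAA and 2 CAGAC matches, and no GC box. Its TATAAA match began at -117, counted from the RefSeq start. Bgn had 64.4% and 3 GC boxes, 2 of them overlapping, and Fstl1 68.0% and 2 GC boxes. Fmod had 51.2% and 2 CAGAC matches. Among all 32851 promoters of this length, 12.4% held TATAAA, 33.8% CCAAT, 32.7% GGGCGG, 42.2% CAGAC and 6.75% TGANTCA, and the median GC content was 52.4%. The 3 promoters shown whose genes were highest on Cx43 KO 4 had no motif that all 3 held. Islr, also highest on Cx43 KO 4, had 1 CAGAC match and no GC box in its promoter, not shown. Vcan, lowest on Cx43 KO 4, had 2 GC boxes, as did Fstl1. A match is a string of letters and not a measured binding site.

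Beyond these genes, 273 other symbols were listed by role, some of them older names of the same gene. Of these, 101 were named on the array and 46 were tested, 24 higher and 22 lower in Cx43 KO. None was called (limma, 0 of 46 at an adjusted p of 0.05), and their median difference was 0.053, against 0.017 over all 3505. Before adjustment, 4 of the 46 lay below a p of 0.05 in limma, against 263 of 3505 (7.5%). The lists were written with earlier results of these data known, so these shares are a description. Among other fibrillar collagens, Col1a1, a chain of collagen I, averaged 1.43 ± 0.47 (SD, n = 4) for WT against 1.56 ± 0.86 (SD, n = 4) for Cx43 KO (difference 0.13, limma adjusted p = 0.964). Col6a1 and Col9a1, of the other collagens, differed by -0.47 and -0.37. Of 5 further proteoglycans, 3 were higher and 2 lower, with the glypicans Gpc2 at -0.54 (adjusted p = 0.655) and Gpc6 at -0.26, and the testican Spock2 at 0.33. Of the matricellular genes only 2 more were tested, Smoc1, the paralogue of Smoc2, at 0.95 (SE 0.68, 3 arrays per genotype) and the thrombospondin Thbs3 at -0.21, while 8 on the array, Sparc and Tnc among them, had no ratio on any array.

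Of 6 glycoprotein and elastic fibre genes, 2 were higher and 4 lower, with the fibulin Fbln7 at -1.02 (SE 0.31, adjusted p = 0.648, 3 arrays per genotype), the basement membrane nidogen Nid1 at -0.68 and the laminin chain Lama2 at -0.16. Collagen folding, processing and crosslinking genes were 5 higher and 4 lower, with the procollagen C-proteinase Bmp1 at 0.77 (SE 0.31, adjusted p = 0.655), the lysyl hydroxylase Plod3 at 0.43 and the lysyl oxidase relative Loxl3 at 0.26. Of the listed proteases and inhibitors, 6 proteases and no inhibitor were tested, 1 higher and 5 lower, with a median difference of -0.19. Among them were Adam17 at -0.35, Adam19 at -0.35 and the gelatinase Mmp2 at -0.54. Matrix receptors split 2 to 2, with the hyaluronan receptor Cd44 at 0.53, the integrin chains Itga6 at -0.20 and Itgb1 at -0.52.

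Of 11 tested genes listed for the transforming growth factor pathway, 9 were higher and 2 lower in Cx43 KO. Their median difference was 0.30, against 0.017 over all genes. The list holds activating and inhibiting genes, such as Smad3 and Smad7, and genes of the bone morphogenetic protein branch, such as Smad1. The counts therefore give no direction of signalling. Smad7, the pathway's inhibitory Smad, differed by 0.86 (SE 0.25, adjusted p = 0.572), the coreceptor Tgfbr3 by 1.62 (SE 0.79, adjusted p = 0.687) and the ubiquitin ligase Smurf2 by 0.37 (SE 0.21, adjusted p = 0.734). Tgfbr3 stood at 4.49 on Cx43 KO 3 and between -0.63 and 1.38 on the other arrays. The mean of these 11 genes was 0.60, 0.36, 0.27 and 0.62 in WT samples 1 to 4 and 0.72, 0.90, 1.12 and 0.93 on Cx43 KO 1 to 4. Acvrl1, an activin receptor-like kinase named here after its values were seen, lay at 2.44 on Cx43 KO 2 and between -1.70 and -0.42 on the other arrays. Without it the mean of the other 10 genes was 0.75 on Cx43 KO 2, below WT 1 (0.80) and WT 4 (0.83), so the genotypes overlapped. Twist1 is in this list and among the fibroblast markers. The list was written with the value of Smad7 known, and 0 of its genes were called.

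Markers of other cells moved with some of the arrays. Among 33 fibroblast, meningeal and mural markers, Dpt encodes a matrix protein. Of the 33, 16 were on the array and 5, not Dpt, had 8 values. Their mean was -0.084 to 0.89 in WT and -0.59, -0.68, 0.38 and 0.61 on Cx43 KO 1 to 4, so the first 2 Cx43 KO arrays were the lowest. Foxc2, S100a6 and Cxcl12 had no ratio on any array. Ptgds, the prostaglandin D synthase of the meninges, named here after its values were seen, lay at -4.26 and -4.04 on Cx43 KO 1 and 2 and between -1.23 and 0.72 elsewhere. The list mean depended on it: over the other 4 genes it was 0.33, 0.16, 0.59 and 1.07 on Cx43 KO 1 to 4, against 0.11 to 0.93 in WT, so that arrays 1 and 2 lay within the WT range and Cx43 KO 4 was the highest. Of 33 microglia and macrophage markers, 16 were on the array and 8 had 8 values, with a mean of 2.07 on Cx43 KO 4 and of -0.066 to 1.22 on the other arrays. Of these 8, named here after their values were seen, Cd68, Itgam, Rac2, Cd53 and Cybb were highest on Cx43 KO 4. Tyrobp and Irf8 were highest on WT 2, and Lgmn lay at 0.68 on Cx43 KO 4 and between 0.51 and 1.59 elsewhere. Fcer1g, Ctss, Ptprc, Itgb2 and Coro1a had no ratio on any array. Of 24 astrocyte markers, 9 were on the array and 5 had 8 values, with a mean of 0.37 on Cx43 KO 4 and of 1.28 to 1.72 on the others. Endothelial markers had 0 genes with 8 values of 7 on the array, neuronal markers 2 of 7 and oligodendrocyte markers 1 of 4. The part of these cells in the matrix values was not tested, and in such bulk RNA fewer cells of a type and less RNA per cell cannot be told apart.

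**Figure D4:**
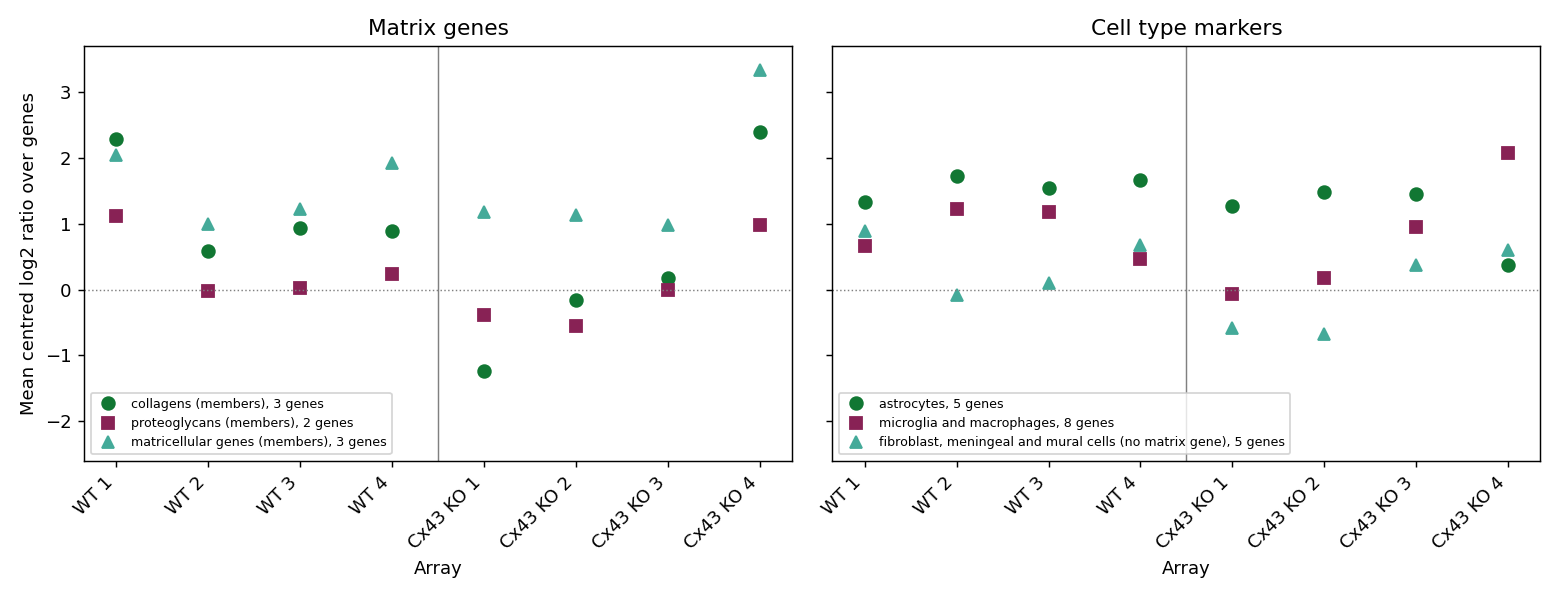
Mean centred log2 ratio per array for the collagens, proteoglycans (Bgn and Vcan) and matricellular genes described here (left) and for 3 lists of cell type markers (right), over genes with 8 values, with 1 point per list and array and a line between WT and Cx43 KO. On Cx43 KO 4 the collagens (2.40), matricellular genes (3.33) and microglia markers (2.07) are at their highest and the astrocyte markers (0.37) at their lowest.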

How the data were processed

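The deposited tables give a signed log ratio, read as log2, for each of 9568 features on 8 arrays. Their base, dyes, scanner, background correction and normalization: not given in the sources used here. Per the labels, one channel held astrocyte RNA and the other the tissue pool. Exact 0 (42.4% to 63.4% of features) was set to missing, each array was centred on its median, and features with 1 symbol in the platform annotation (7307 features) were averaged per gene. Genes and unnamed features with at least 3 values per genotype, 3505 in all, were tested with limma 3.58.1 (R 4.3.3, two-sided, Benjamini-Hochberg, threshold 0.05), without a block. The SEs and intervals of the differences came from this fit, with each variance drawn towards that of all genes. The script was tested on simulated data.

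The genes, their roles and all lists were chosen with earlier results of these data known. Named besides them were the 3 tested genes with the smallest p of each of 9 matrix lists and the 8 genes most like the mean of the members. Other genes are said to be named after their values were seen. The labels pair same-numbered arrays by lot batch. The deviations of each pair had r = -0.17, 0.20, -0.13 and -0.17 over genes (lot batches 1 to 4).

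Alternatives changed the centring, scaling, block, array weights, filter, reading of 0 and averaging, and left out each array and each lot batch.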

Additional observations from a re-analysis of the deposited data

Results flagged for a closer look

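In all, 78 groups of 4 arrays were examined for an array lying far from the other 3, and 10 showed one. Chance gives about 1 in 20, but the 2 shares cannot be compared, since most of these genes were chosen on the same ratios, and Mad2l1bp, Tfpi, Uhrf2 and Dnajc13 for their likeness to the matrix genes. Among the matrix genes, Col5a2 was at 3.64 on WT 1, with the other WT arrays between 2.83 and 2.90. Fstl1 was at 3.71 on Cx43 KO 4, with the others between 2.31 and 2.44. Smoc2 was at 2.77 on Cx43 KO 4, with the others between -2.14 and -1.87, and the mean of the 3 matricellular genes was at 3.33 there, against 0.99 to 1.18. Of other genes on Cx43 KO 4, Loxl3 was at 0.53 (others 0.26 to 0.27), Tfpi at 1.54 (others -0.38 to -0.24) and Dnajc13 at 1.48 (others 0.57 to 0.70). Itga6 was at 1.26 on Cx43 KO 3, with the others between 0.69 and 0.78. On WT 1, Mad2l1bp was at -0.35 (others -0.75 to -0.69) and Uhrf2 at 0.78 (others 0.17 to 0.24).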

How the results depend on the processing

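The number of genes called by limma was 0 under the 10 alternatives that kept all 8 arrays. It was 0 to 4 when 1 array or 1 lot batch was left out, 4 without Cx43 KO 4 and 1 without WT 2, and 0 of the 10 matrix genes were called under any of them. With the replicate block (lot batch) 0 were called, and it changed no call. Of the 10 matrix genes, 1 lay below an unadjusted p of 0.05, and this count was 5 without Cx43 KO 4, 3 without lot batch 4 and with array weights, and 2 without WT 4 or Cx43 KO 3. The mean difference of the 3 collagens was -0.88 and that of the 3 matricellular genes 0.11. Leaving out 1 array or lot batch took them from -1.68 to -0.0010 and from -0.45 to 0.44, the lowest without lot batch 4 for the collagens and without Cx43 KO 4 for the matricellular genes, and the highest without lot batch 1 for both. Fmod could not be fitted with WT 1, 3 or 4 or lot batch 1, 3 or 4 left out, since 2 WT values remained, nor among genes with 8 values. The counts of groups without overlap and the Cx43 KO levels without Cx43 KO 4 or Cx43 KO 1, the list means without Acvrl1 or Ptgds, and Smoc2 before centring were chosen after seeing the data. For Col3a1 that level was -2.04 ± 1.89 (SD, n = 3) without Cx43 KO 4 and 0.51 ± 2.87 (SD, n = 3) without Cx43 KO 1. Features without a ratio, and features of a gene missing on some arrays, limit what the signal can show. If the logarithm had another base, all differences would be rescaled by 1 factor.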
